A study of Gallus gallus with 33 samples.

Results

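The chromatin and bromodomain regulators on a transcription factor microarray were followed in cultured sensory epithelia of the utricle, a vestibular organ of the chick, after wounding with a laser. They were chosen by a rule on names, with earlier results of these data known. The set holds the identifiers that start with BRD, BAZ, SMARC, CBX, EZH, HDAC, SIRT, CHD, HMG, MLL, PHF, SUV39, MBD or DNMT, without control oligonucleotides. Described here are 43 of the 1516 identifiers analysed, and no identifier began with SIRT, PHF, SUV39, MBD or DNMT. By complex, assigned from the name, they comprised 9 bromodomain proteins (BRD and BAZ), 8 SMARC proteins and 3 CHD remodellers. The SMARC proteins were set with the SWI/SNF and ISWI remodellers by prefix, whether or not each is a subunit. There were also 4 Polycomb proteins, 3 proteins of the heterochromatin protein 1 (HP1) family, 3 histone deacetylases and 4 high mobility group (HMG) proteins. The last 9 identifiers were the MLL family with its leukaemia fusion partners.

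Epithelia of White Leghorn chicks had been isolated from the stroma, cut into pieces and grown in culture before a pulsed laser microbeam cut linear wounds into them. Wounded cultures were collected after 30 min or after 1, 2 or 3 hr, and control cultures of the same time had stood beside the microscope without being lesioned. Each biological sample pooled several cultures of each kind, and the amplified RNA of both was hybridized together in Cy3 and Cy5 on arrays of human oligonucleotides, so every value below is a log2 ratio of laser over control within an array. There were 2 biological samples at 30 min (5 arrays), 2 at 1 hr (6 arrays), 2 at 2 hr (8 arrays) and 3 at 3 hr (14 arrays). All cultures, wounded or not, had been taken from the organ, and the wound touched only part of each culture, so the RNA is a mixture of cells near to and far from the lesion.

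Chromatin regulators act on histones and nucleosomes rather than on a particular DNA sequence. SWI/SNF, ISWI and CHD complexes move or evict nucleosomes with the energy of ATP, Polycomb complexes methylate and compact histones at silenced genes, and HP1 proteins bind the methylated histones of heterochromatin. Deacetylases remove the acetyl groups that bromodomains read, HMG proteins bind and bend DNA, and MLL enzymes methylate histones at active genes. In inner ear epithelia such regulators are of interest because supporting cells of birds re-enter the cell cycle and replace hair cells after damage.

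The first question was which of them could be measured. A probe was tested where 50% or more of the 33 arrays showed it with a signal over 1000, in whichever channel. By this limit 11 of the 43 regulators passed (25.6%), against 24.5% of all 1516 identifiers. The 11 were the bromodomain genes BRD1, BAZ1B and BAZ2B, the SWI/SNF subunit SMARCE1, the Polycomb gene EZH1, the HP1 gene CBX1, the HMG genes HMG2 and HMGIY, and MLL, MLLT4 and MLLT6. None of the 3 deacetylases (HDAC1, HDAC2, HDAC4) and none of the 3 CHD remodellers (CHD2, CHD3, CHD4) passed.

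**Figure D1:**
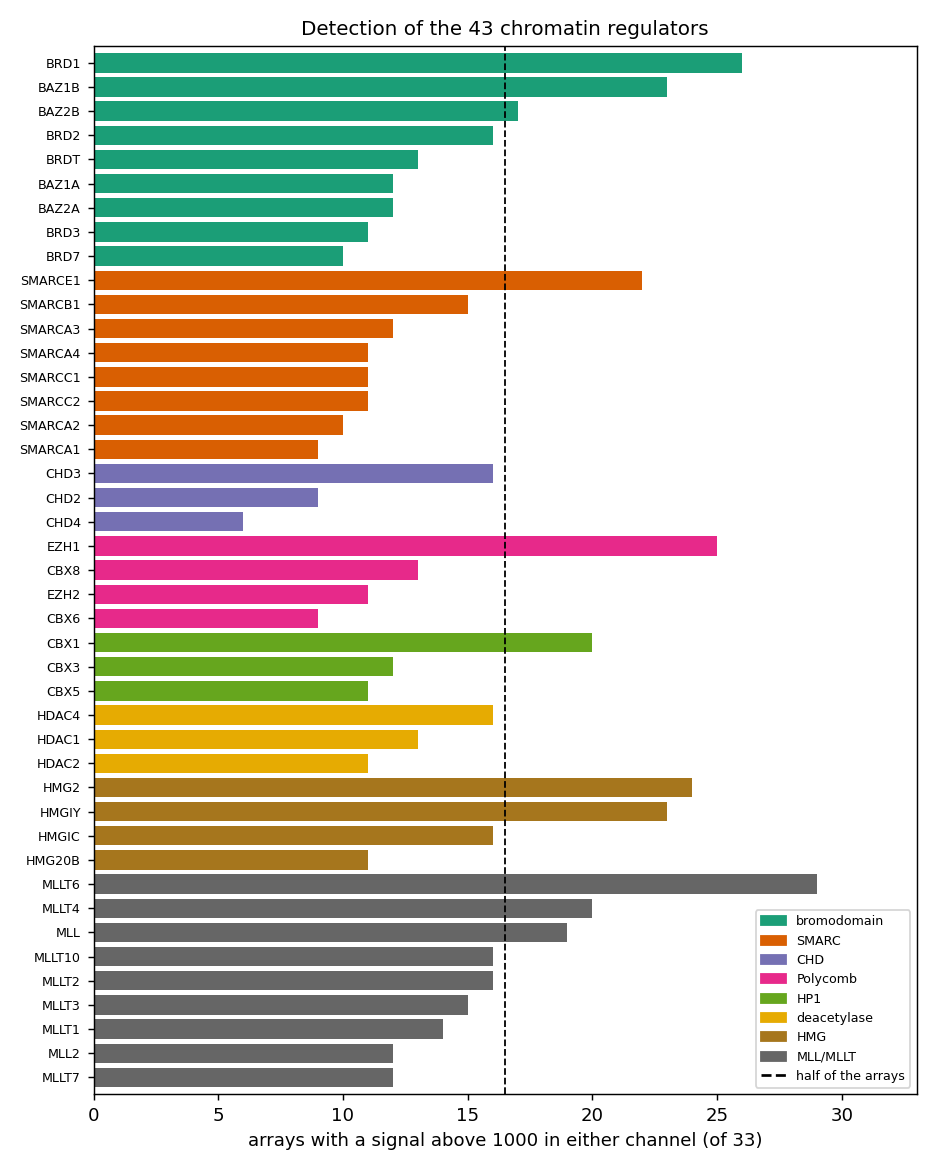
Number of arrays, of 33, on which each of the 43 regulators had a signal above 1000 in either channel (x axis), with 1 bar per identifier and colours for the complexes. MLLT6 exceeded the limit on 29 arrays and BRD1 on 26, while the 32 bars that end left of the dashed line lie between 6 and 16 arrays.

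The most often bright were MLLT6, a PHD finger protein, on 29 arrays, BRD1, a scaffold of acetyltransferase complexes, on 26, and EZH1, a Polycomb methyltransferase, on 25. BAZ2B, with 17 arrays, lay just inside the limit. Just outside it, with 16 arrays each, lay BRD2, CHD3, HDAC4, HMGIC, MLLT10 and MLLT2. BRD2 was absent from the 5 arrays of an earlier print, together with BRD1, BRD7, HMG2, SMARCA2 and SMARCC1. The SMARCA and CHD identifiers varied, with CHD3 on 16 arrays, SMARCA3 on 12, SMARCA4 on 11 and SMARCA2 on 10. SMARCA1 and CHD2 were on 9 each and CHD4 on 6, the fewest of the 43.

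Signals differed widely between arrays. The number of the 43 regulators above the limit ran from 0 to 43 per array, and the median signal ran from 189 to 2429 in Cy3 and from 88.5 to 1440 in Cy5. The labelled tissue was checked with transcription factors of its cell types. SOX2, a supporting cell marker, was above the limit on 25 arrays, but the other 3 supporting cell markers on the array were on 10 or 11. The 4 hair cell markers, ATOH1, POU4F3, GFI1 and BARHL1, were above it on 10 to 15 arrays and did not pass. Of 4 markers of neurons 3 passed, as did 1 of 4 of stroma and 1 of 3 of blood cells. The part of other cells in the ratios below was not tested.

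No regulator passed the test of laser against control at any time after the lesion. limma gave 0 regulators with a Benjamini-Hochberg adjusted p under 0.05 at each of the 4 time points, and likewise 0% of all 371 probes tested. Without adjustment, too, 0 of the 11 had a p under 0.05 at any time point. Of all probes 0.809% had one after 30 min, 1.35% after 1 hr, 1.35% after 2 hr and 2.16% after 3 hr. All time points share 1 estimate of the spread, so 3 hr replicate 1 enters the SE, p and interval of the earlier times too. Without that sample MLLT6 at 30 min had an SE of 0.23 in place of 0.68. Its unadjusted p was then 0.0440 by limma (adjusted p = 0.764), and the share of all probes in that fit was not computed. A one-sample t-test over arrays, the kind the paper's methods name, also gave 0 regulators after adjustment. Before it there were 2 regulators at 2 hr and 0 at the other times. It used the ratios and probes of this report. The paper's removal of poor hybridizations and its filter for a shared trend were not applied, so it does not repeat the paper's procedure. That t-test takes technical arrays as units, and the shares of all probes above are from limma, not from it. Its own share of all probes before adjustment was not computed. Whether the 2 regulators exceed that share is therefore not known. With all 9 samples the smallest unadjusted p of a regulator by limma was 0.0910, for BRD1 at 3 hr (adjusted p = 0.655). The interval of the mean ratio included 0 for all 11 at each time point. From the mean to either bound (95% confidence) it spanned a median of 0.39 on the log2 scale at 3 hr and 0.47 at the earlier times. It was narrowest for BAZ2B (0.34 at 3 hr) and widest for BRD1 (2.24 at 3 hr). For BAZ2B at 3 hr the interval ran from -0.58 to 0.11, and for BRD1 from -4.10 to 0.38. The intervals measure the spread of sample means, some of which average opposite signs from the dye-swapped arrays. A narrow interval therefore need not bound a change after the lesion closely. In such mixed cultures fewer cells of a type and less RNA per cell cannot be told apart.

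Most ratios were small. Over the 11 regulators the median log2 ratios from 30 min to 3 hr were 0.07, -0.01, 0.07 and -0.22, and those of all 371 probes were -0.04, 0.00, 0.00 and -0.06. More than 1.2-fold lower after the lesion were 1 regulator at 30 min (16.2% of all probes), 0 at 1 hr (8.89%), 1 at 2 hr (9.7%) and 3 at 3 hr (32.9%). More than 1.2-fold higher were 1 at 30 min (5.66% of all probes), 0 after 1 hr (9.43%), 1 after 2 hr (8.89%) and 0 after 3 hr (1.89%). The 3 lower ones at 3 hr were BRD1, MLLT6 and BAZ1B, a share of the 11 near that of all probes. Without 3 hr replicate 1 the 3 hr median of the regulators was -0.02, that of all probes 0.06, and 0 regulators and 1.08% of all probes were more than 1.2-fold lower.

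**Figure D2:**
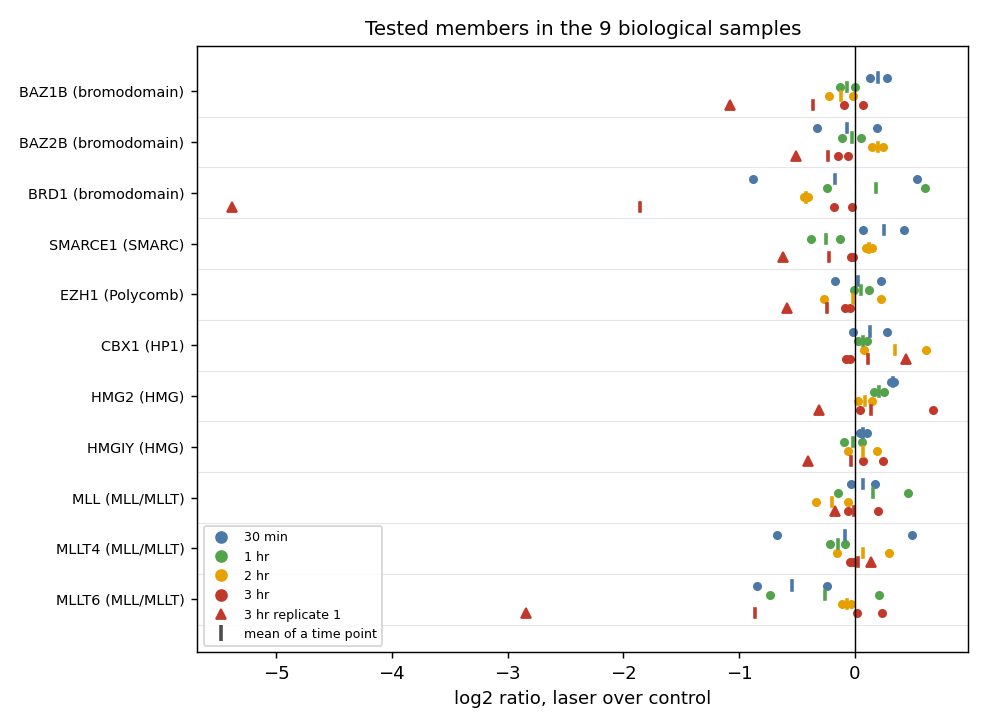
Log2 ratios of laser over control (x axis) of the 11 regulators tested, 1 point per biological sample, with colours for the time points and bars at their means. Apart from the triangles of 3 hr replicate 1, at -5.38 for BRD1, -2.84 for MLLT6 and -1.08 for BAZ1B, the points lie between -0.88 and 0.68.

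Among the bromodomain proteins, BRD1 is a scaffold of histone acetyltransferase complexes. Its log2 ratios were 0.54 and -0.88 in the 30 min samples, 0.61 and -0.24 in the 1 hr samples, -0.44 and -0.41 in the 2 hr samples, and -5.38, -0.18 and -0.02 in the 3 hr samples. The replicates of 30 min and of 1 hr ran opposite ways, and those of 2 hr and of 3 hr were all below 0. Far beneath the others lay 1 value of 9. For 3 hr replicates 2 and 3 the mean joined opposite signs. They gave 0.80 and 0.40 with laser RNA in Cy3, and -1.15 and -0.45 with laser RNA in Cy5. Of the 3 bromodomain genes tested BRD1 had the largest moderated F over the time points (0.99, p = 0.470 by limma, adjusted p = 0.964). The mean at 3 hr was -1.86 (SE 0.96), and without 3 hr replicate 1 it was -0.10 (SE 0.31, limma adjusted p = 0.996).

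BAZ1B, the kinase and WICH remodelling subunit also known as WSTF, had log2 ratios of 0.28 and 0.13 at 30 min, 0.00 and -0.13 at 1 hr, -0.22 and -0.02 at 2 hr, and -1.08, -0.09 and 0.07 at 3 hr. A single sample, 3 hr replicate 1, stood far below 0. The means of BAZ1B were 0.20, -0.06, -0.12 and -0.36 from 30 min to 3 hr. Without that sample the 3 hr mean was -0.01 (SE 0.13). The 3 hr replicates left, 2 and 3, each joined opposite signs. They gave 1.04 and 0.28 with laser RNA in Cy3, and -1.22 and -0.13 with laser RNA in Cy5. So did 1 hr replicates 1 (-0.07 in Cy3, 0.07 in Cy5) and 2 (0.58, -0.84), and 2 hr replicate 2 (-0.14, 0.11). BAZ2B, a bromodomain protein that pairs with ISWI ATPases, had log2 ratios of 0.19 and -0.33 at 30 min, -0.11 and 0.05 at 1 hr, 0.15 and 0.24 at 2 hr, and -0.51, -0.14 and -0.06 at 3 hr. Its replicate means agreed in sign at 2 hr, above 0, and at 3 hr, below it. In 3 hr replicates 2 and 3, however, the dyes gave opposite signs. The values were -0.29 and 0.25 with laser RNA in Cy3, and 0.01 and -0.36 with laser RNA in Cy5. The 3 bromodomain genes had medians of -0.07, -0.03, -0.12 and -0.36 from 30 min to 3 hr, and the last value was -0.10 without 3 hr replicate 1.

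BRD2, a BET protein, lay just outside the limit. With a signal limit it was tested only when the share was taken over the 28 arrays that carry its probe. Its signal was above the limit on 16 of them (57.1%). This alternative was chosen after the data had been seen. BRD2 had log2 ratios of -0.08 and 0.34 at 30 min, -0.06 and -0.01 at 1 hr, -0.19 and -0.20 at 2 hr, and -0.32, -0.29 and -0.15 at 3 hr. All 5 samples of 2 hr and 3 hr were below 0. Of single arrays, however, 2 of 7 at 2 hr and 2 of 10 at 3 hr were above 0, up to 0.35 and 0.54. In 2 hr replicate 2 and 3 hr replicates 2 and 3 the direction is not settled, as described below. The 3 hr mean of -0.25 (SE 0.12) had an unadjusted p of 0.0683 by limma and an adjusted p of 0.648 over 378 probes.

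SMARCE1, the HMG-box subunit of SWI/SNF also called BAF57, was the only one of the 8 SMARC genes that passed the signal limit. Its log2 ratios were 0.43 and 0.07 at 30 min, -0.38 and -0.13 at 1 hr, 0.09 and 0.15 at 2 hr, and -0.62, -0.01 and -0.03 at 3 hr. The sample means of each time point shared a sign, which changed from one time point to the next. Some of these means averaged opposite signs with laser RNA in Cy3 and in Cy5. These were 30 min replicate 2 (-0.06 and 0.20) and 3 hr replicates 2 (-0.10 and 0.07) and 3 (0.45 and -0.51), so the sign there is not settled. SMARCE1 had the largest F of all 11 regulators (1.44, p = 0.311 by limma, adjusted p = 0.964). The means were 0.25, -0.25, 0.12 and -0.22 (SE 0.16 at 3 hr and 0.19 before), and the last was -0.02 without 3 hr replicate 1. The 1 hr mean minus the 30 min mean was -0.50 (SE 0.27), with the smallest p of a regulator for that contrast (0.105, limma adjusted p = 0.994).

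Of the Polycomb genes, EZH1, a histone methyltransferase of the repressive complex, had log2 ratios of -0.17 and 0.23 at 30 min, 0.00 and 0.12 at 1 hr, 0.23 and -0.26 at 2 hr, and -0.59, -0.09 and -0.04 at 3 hr. The samples of 30 min, of 1 hr (the first at -0.0044) and of 2 hr lay on both sides of 0, and all 3 of 3 hr lay below it. For 3 hr replicate 1 this held only after loess. Before it the laser signal was the brighter on all 6 arrays, by 3.13 to 17.0 times. It reached 62370, where the scanner maximum is 65535. With median centring the 3 hr mean of EZH1 was 0.46. In 3 hr replicates 2 and 3 the dyes gave opposite signs. The values were 1.17 and -0.12 with laser RNA in Cy3, and -1.35 and 0.03 with laser RNA in Cy5. The F of EZH1 was 0.55 (p = 0.703 by limma, adjusted p = 0.964). EZH2, CBX6 and CBX8 did not pass the signal limit.

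CBX1, the HP1 beta protein of heterochromatin, had log2 ratios of -0.01 and 0.28 at 30 min, 0.11 and 0.03 at 1 hr, 0.08 and 0.61 at 2 hr, and 0.45, -0.04 and -0.07 at 3 hr. The value was above 0 in 6 of 9 samples, and those of 2 hr replicate 2 and 3 hr replicate 1 stood above the rest. In these 2 samples the dyes agreed in sign for CBX1, but across all probes the direction of 2 hr replicate 2 is not settled, as described below. In 3 hr replicate 1 the uncorrected laser signal was 2.54 to 28.6 times the control signal. It reached 63826, where the scanner maximum is 65535. The other samples above 0 averaged opposite signs with laser RNA in Cy3 and in Cy5. They were 30 min replicate 2 (-0.58 and 1.13), both of 1 hr (-0.06 and 0.27, -0.13 and 0.19) and 2 hr replicate 1 (0.27 and -0.11). The 2 hr mean of CBX1 was the highest of a tested regulator at any time point, 0.35 (SE 0.20), with an unadjusted p of 0.118 by limma and an adjusted p of 0.993, and it was below 0 in 2 of the alternatives. CBX3 and CBX5 did not pass the signal limit.

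HMG2, now HMGB2, a DNA-bending protein abundant in dividing cells, was above 0 in 8 of 9 samples. Its log2 ratios were 0.32 and 0.34 at 30 min, 0.16 and 0.25 at 1 hr, 0.15 and 0.03 at 2 hr, and -0.31, 0.68 and 0.04 at 3 hr. Only 3 hr replicate 1 was below 0. Its value is the mean of 2 arrays that disagreed, at -1.13 with laser RNA in Cy3 and 0.51 with laser RNA in Cy5. Opposite signs were also joined in samples above 0. These were 30 min replicate 2 (-0.10 with laser RNA in Cy3, 0.78 in Cy5) and 1 hr replicate 2 (-0.50, 1.01). The others were 2 hr replicate 2 (0.17, -0.11) and 3 hr replicate 3 (-0.06, 0.15). Averaged over all 9 samples HMG2 was 0.19 (SE 0.09), with the smallest p of the 11 (0.0671 by limma, adjusted p = 0.619). In that fit 6.47% of all probes had an unadjusted p under 0.05. Without 3 hr replicate 1 the mean of HMG2 was 0.25 (SE 0.08, p = 0.00769 by limma, adjusted p = 0.598). Across all probes the dye orientations ran opposite ways in 4 of the 8 samples above 0 (the second samples of 1 hr and 2 hr, and replicates 2 and 3 of 3 hr). The sign was not stable, since the mean over all samples was -0.08 with the Cy5 arrays of those 4 samples unturned, -0.08 with no background correction and -0.16 in the deposited ratios. HMGIY, now HMGA1, an AT-hook protein, had log2 ratios of 0.10 and 0.05 at 30 min, -0.09 and 0.07 at 1 hr, 0.19 and -0.06 at 2 hr, and -0.40, 0.24 and 0.07 at 3 hr. Both HMG genes tested were lowest in 3 hr replicate 1, and without that sample their 3 hr means were 0.36 for HMG2 (SE 0.17) and 0.16 for HMGIY (SE 0.14).

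MLLT6 is a fusion partner of MLL with PHD fingers. Its log2 ratios were -0.84 and -0.24 at 30 min, 0.21 and -0.73 at 1 hr, -0.03 and -0.11 at 2 hr, and -2.84, 0.02 and 0.24 at 3 hr. Both 30 min and both 2 hr samples were below 0. With laser RNA in Cy3 and in Cy5 the signs differed in 30 min replicate 2 (0.01 and -0.49) and 2 hr replicate 1 (0.36 and -0.42). They differed too in 1 hr replicate 2 (0.29 and -1.75). The same held for 3 hr replicate 2 (1.68 and -1.63) and 3 hr replicate 3 (0.49 and -0.02). The F of MLLT6 was the largest of its family (0.81, p = 0.558 by limma, adjusted p = 0.964). The 3 hr mean was -0.86 (SE 0.55), and 0.13 (SE 0.23) without 3 hr replicate 1. MLL, the methyltransferase now named KMT2A, had log2 ratios of -0.03 and 0.17 at 30 min, -0.15 and 0.46 at 1 hr, -0.06 and -0.34 at 2 hr, and -0.17, -0.06 and 0.20 at 3 hr, with both samples on the same side of 0 at 2 hr alone. MLLT4, now AFDN, is afadin, an adaptor of cell junctions that the name rule brought in. Its log2 ratios were 0.50 and -0.67 at 30 min, -0.08 and -0.21 at 1 hr, 0.30 and -0.15 at 2 hr, and 0.14, -0.01 and -0.04 at 3 hr. Its 30 min samples lay farther apart than those of any other tested regulator except BRD1.

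The second question was whether the ratios changed from one time point to another. With limma 0 of the 11 regulators passed the moderated F test, on either scale of p, and 0 passed any of 4 contrasts. Unadjusted p-values under 0.05 were found in 0.27% of all probes for F, in 0.809% for 1 hr minus 30 min, 0.539% for 2 hr minus 1 hr, 1.62% for 3 hr minus 2 hr and 0.539% for 3 hr minus 30 min, and in 0 regulators for each. In the contrast of 3 hr minus 30 min 10 of the 11 were below 0, with a median of -0.19, as were 55.5% of all probes, with a median of -0.06. Without 3 hr replicate 1 the count was 5 of the 11, with a median of 0.00, and 35.3% of all probes, with a median of 0.09.

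The lowest values came from 1 sample. In 3 hr replicate 1 the SD of the log2 ratios across all 371 probes was 1.04, while in the other 8 samples it was between 0.16 and 0.40. This sample lay apart from the other 8 for 3 of the 11 regulators (BRD1, MLLT6 and BAZ1B) by Dixon's criterion. Over all probes 30.7% had a sample apart, and in 88 of those 114 it was 3 hr replicate 1. It was the lowest of the 9 samples for 8 of the 11 regulators, and for 48.2% of all probes. CBX1 and MLLT4 went the other way there, at 0.45 and 0.14. BRD1 had the lowest value of all 371 probes in this sample, and MLLT6 ranked 16 and BAZ1B 102 from the bottom.

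**Figure D3:**
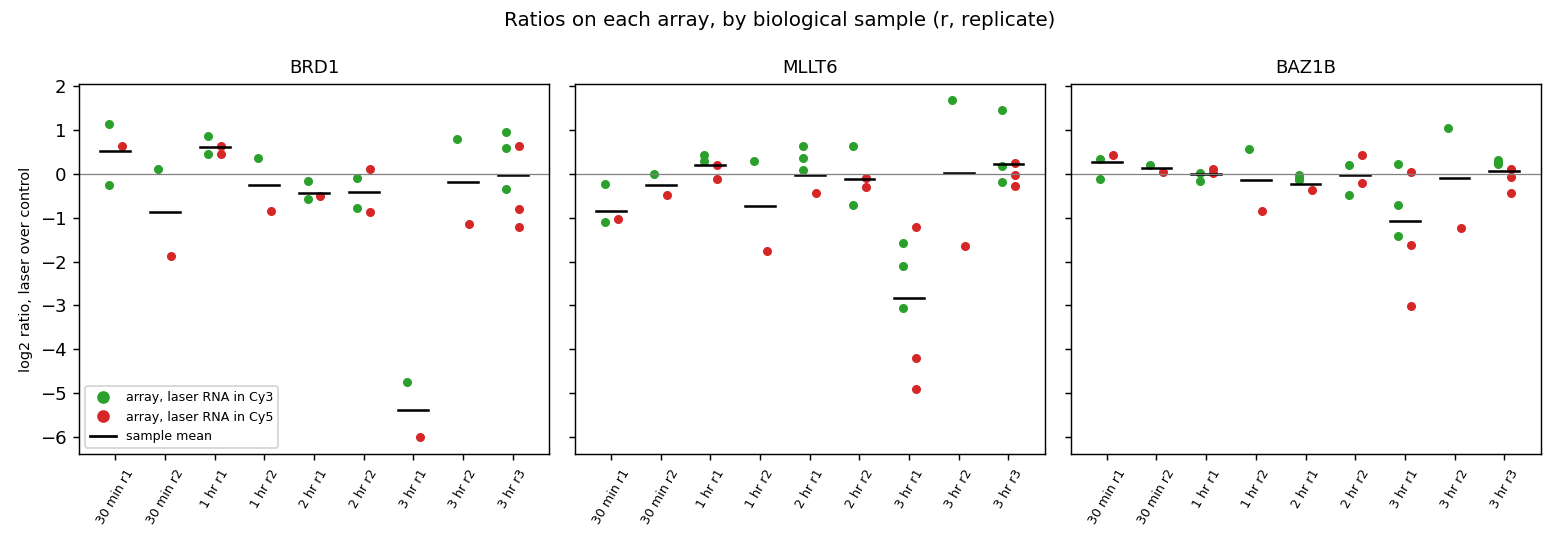
Log2 ratios of laser over control (y axis) of BRD1, MLLT6 and BAZ1B on each array, by biological sample (x axis), with laser RNA in Cy3 in green, laser RNA in Cy5 in red, and a line at the sample mean. In 3 hr replicate 1 both arrays of BRD1 and all 6 arrays of MLLT6 lie below -1, whichever dye the laser RNA carried, and BAZ1B spreads from -3.01 to 0.23.

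The signals behind these values were followed array by array. BRD1 was carried by only 2 of the 6 arrays of 3 hr replicate 1. On the array with laser RNA in Cy3 its laser signal was 1768 and its control signal 13450 (log2 ratio -4.74). On the array with laser RNA in Cy5 they were 2003 and 11304 (log2 ratio -6.01). The control channel was thus the brighter in both dyes for BRD1, although the laser channel was the brighter at the median of all probes on all 6 arrays of this sample, by 1.16 to 5.51 times. MLLT6 was below 0 on all 6 arrays after normalization (-4.91 to -1.21), and its laser signal was dimmer than its control signal on 3 of them before it. BAZ1B was below 0 on 4 of the 6 and dimmer on 2. EZH1 and HMGIY were each below 0 on all 6 after normalization and dimmer on 0 before it.

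**Figure D4:**
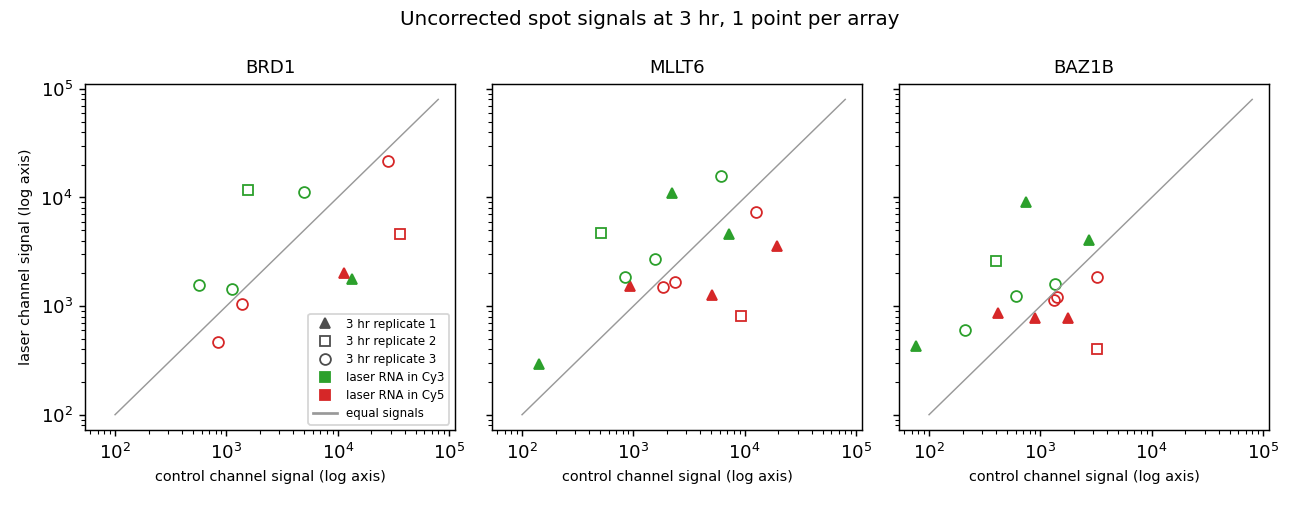
Uncorrected signals of the laser channel (y axis) and the control channel (x axis), both on log axes, for BRD1, MLLT6 and BAZ1B on the 3 hr arrays, with 1 point per array, a shape per replicate, colours for the dye of the laser RNA and a line of equal signals. For BRD1 both filled triangles of 3 hr replicate 1 lie below the line, at laser signals of 1768 and 2003, while the open points of the other replicates lie above it with laser RNA in Cy3 and below it with laser RNA in Cy5.

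The day in the name of each image file gave 12 days, of which 8 held arrays of more than 1 time point. On a day shared by 3 hr replicate 1 and 2 hr replicate 1, with 2 arrays each, BRD1 averaged -5.38 in 3 hr replicate 1 and -0.54 in 2 hr replicate 1. MLLT6 averaged -3.62 and -0.17 in the same order of samples, and BAZ1B -1.52 and -0.23. On another day shared by these samples, with 1 array each, MLLT6 was -1.58 in 3 hr replicate 1 and 0.36 in 2 hr replicate 1, while BAZ1B was 0.23 and -0.02. MLLT6 was thus lower in 3 hr replicate 1 on both days, and BRD1 on the only day that gave it a value in that sample. With arrays as units and the day as a random block, an alternative chosen after the data had been seen, 0 regulators and 16 of 371 probes passed at 3 hr, and the smallest limma adjusted p of a regulator was 0.0544 (MLLT6).

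Dye-swapped arrays of 1 sample should give ratios of the same sign, and this was examined next. Of the 99 pairs of orientation means (11 regulators in 9 samples) 47 had the same sign, as had 47.0% of those of all probes. In 3 hr replicate 1 it was 10 of 11 regulators and 80.9% of all probes. It was 1 of 11 for the second 1 hr sample (37.7% of all probes), and 3 and 2 of 11 for replicates 2 and 3 of 3 hr (29.4% and 14.3%). For the second 2 hr sample it was 7 of 11, against 36.7% of all probes. In the other 4 samples it was between 5 and 7 of 11, and between 49.6% and 60.6% of all probes.

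**Figure D5:**
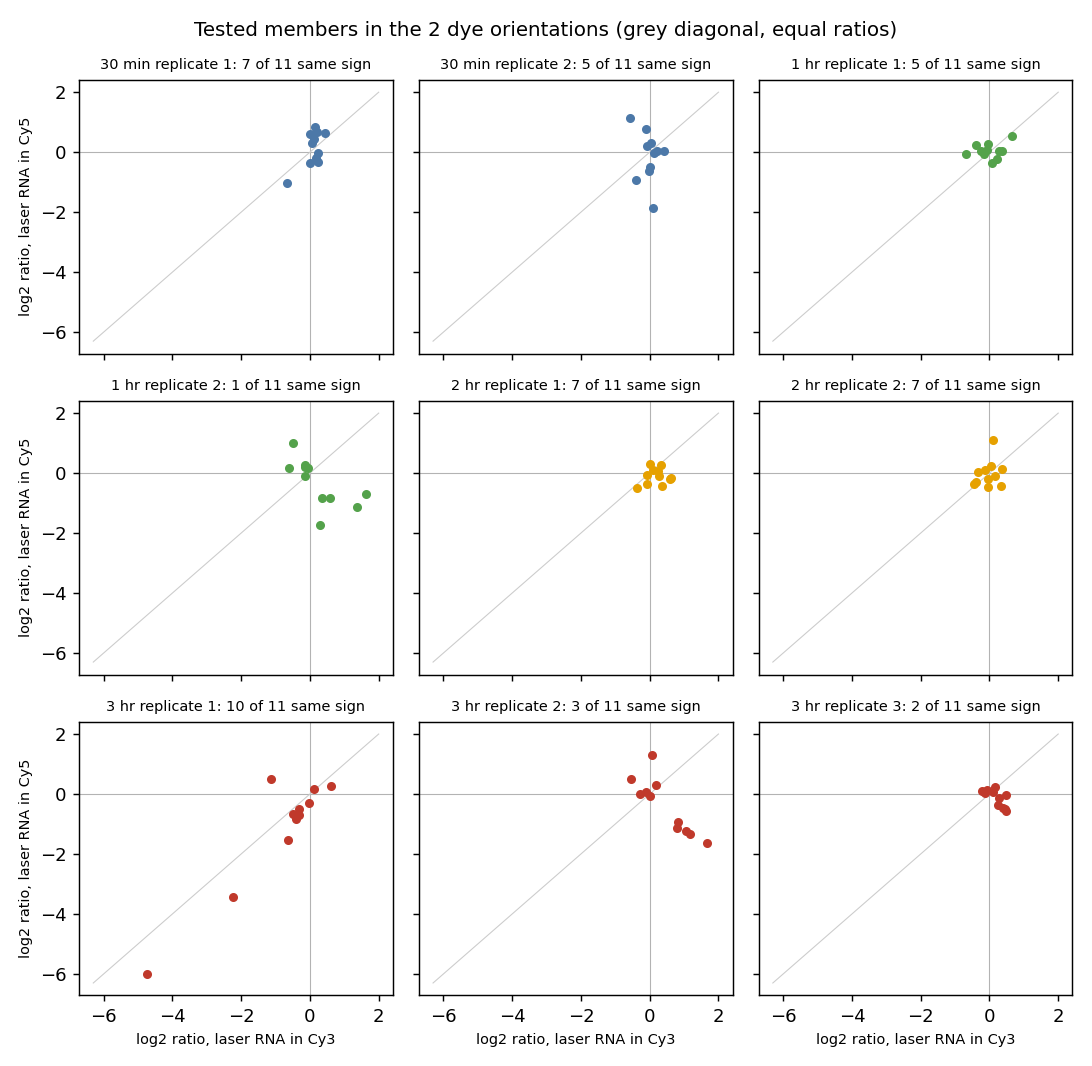
Mean log2 ratios of the 11 regulators with laser RNA in Cy5 (y axis) and in Cy3 (x axis), 1 panel per biological sample and 1 point per regulator, with the diagonal of equal ratios. Points follow the diagonal in 3 hr replicate 1 (10 of 11 with the same sign) and lie mostly on opposite sides of 0 in 1 hr replicate 2 (1 of 11) and 3 hr replicate 2 (3 of 11).

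Across the 371 probes the means of both orientations correlated at -0.63 for the second sample of 1 hr, at -0.37 for that of 2 hr, and at -0.78 and -0.80 for replicates 2 and 3 of 3 hr, so the direction of laser over control is not settled in these 4 samples. Over all identifiers the 2 hr value was -0.28. The probes share their arrays, and the values carry no p. The 3 hr means were therefore also computed with these samples turned. With the arrays of these samples that carried laser RNA in Cy5 left unturned, the means at 3 hr were -1.33 for BRD1, -0.31 for MLLT6 and 0.09 for BAZ1B. With all their arrays then turned as well they were -2.26, -1.58 and -0.81, and 0 regulators passed at any time point with either setting (limma, adjusted p of 0.233 or more at 3 hr). With the 4 samples left out, 1 sample remained at each of 1, 2 and 3 hr, and only the pair of 30 min samples gave a spread (1 residual degree of freedom), which the lone samples were assumed to share. BRD1, MLLT6 and BAZ1B passed at 3 hr in that fit by limma, as did 27.5% of all probes, and these calls rest on 3 hr replicate 1 alone.

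The 32 regulators below the signal limit were examined last, in a fit of all 1516 identifiers without the limit. limma gave 0 of the 43 with an adjusted p under 0.05 at any time point. Unadjusted p-values under 0.05 were found for 1 regulator at 30 min (2.24% of all identifiers), for 0 at 1 hr (1.45%), for 2 at 2 hr (6.07%) and for 1 at 3 hr (2.04%). They belonged to SMARCA2, a SWI/SNF ATPase, at 30 min (0.29, SE 0.12), to CHD2, a remodeller, at 2 hr (0.33, SE 0.13), to MLLT7, the forkhead factor now named FOXO4, at 2 hr (-0.29, SE 0.12), and to BRD2 at 3 hr (-0.25, SE 0.10). These 4 were named after their values were seen, and their adjusted p-values by limma were 0.798 or more. The medians of the 43 were 0.03, -0.03, 0.00 and -0.01 from 30 min to 3 hr, and that of all identifiers was between -0.01 and 0.01.

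By complex, the 7 dim SMARC genes had 3 hr means between -0.17 (SMARCC1, a core SWI/SNF scaffold) and 0.17 (SMARCA2). SMARCA4, the ATPase also called BRG1, had means of 0.19, 0.11, -0.10 and -0.06 from 30 min to 3 hr, and SMARCB1, another core subunit, had -0.27, -0.01, -0.11 and 0.00. Among the dim Polycomb genes EZH2, the methyltransferase of dividing cells, had -0.05, 0.11, 0.03 and 0.08, and CBX6 had 30 min samples of -0.23 and 0.77. Of the dim HP1 genes CBX5, HP1 alpha, had 2 hr samples of 0.22 and 0.51 and 3 hr samples of -0.67, -0.18 and 0.07. The samples of a time point often stood on both sides of 0.

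The deacetylases, none of which passed the signal limit, had 3 hr means of 0.01 for HDAC1, -0.04 for HDAC2 and 0.01 for HDAC4. The earlier means of HDAC1, a subunit of several corepressor complexes, were -0.38, -0.08 and -0.11, and its 30 min samples were 0.15 and -0.90. CHD3 and CHD4, the ATPases of the NuRD deacetylase complex, had 30 min means of -0.31 and 0.23. At 3 hr the SE was 0.09 for HDAC2, 0.09 for HDAC4 and 0.17 for HDAC1. Their signals were above the limit on only 11, 16 and 13 arrays in that order. A small SE of such dim probes need not bound a change closely.

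Other chromatin genes on the array, from a list of Polycomb partners, acetyltransferases, corepressors and histone methyltransferases, were set beside these. Of 29 present 7 passed the signal limit, and 0 of the 7 had an adjusted or an unadjusted p under 0.05 at any time point by limma. Their medians from 30 min to 3 hr were 0.11, 0.04, -0.03 and 0.03.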

How the data were processed

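The deposited channel files hold, per the file headers, the linear intensity of each spot (mean) and of its surroundings (background median) from ImaGene 4.1, neither corrected nor normalized. The authors then applied lowess, removed poor hybridizations and used one-sample t-tests over arrays, and those values were not used here. The deposited table of log2 ratios equalled the raw ratio of the channels and served as an alternative. Background was corrected with normexp (offset 50), ratios were normalized by loess within arrays, duplicate spots were averaged, and ratios were turned to laser over control by the dye in the image names, which the files of 2 arrays contradict by their own names. Arrays of each dye orientation were averaged with equal weight to 1 value per biological sample. limma 3.58.1 (R 4.3.3, statmod 1.5.0) fitted a mean per time point to 9 samples (5 residual degrees of freedom), with Benjamini-Hochberg adjustment over the 371 probes that passed the signal limit. The fit was tested on simulated data with 1 spread for all probes and samples. That simulation does not cover samples of unequal spread or opposed dye orientations, as found here. Arrays per sample (2 to 6) limit the precision. Array names were kept, and 34 of the 43 equalled a symbol or synonym in the chicken gene table of GRCg7b. Same-numbered replicates were checked for pairing, which the deviations could not decide. Named with their values are all regulators that passed the limit, in full for the largest F of each complex. The name rule also gave 2 identifiers that are not reported here and enter no count of regulators. The members and lists were chosen with earlier results of these data known. Separate cultures stand behind each sample, and the p-values measure the spread between these few samples.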

Additional observations from a re-analysis of the deposited data

Results flagged for a closer look

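In 3 regulators the value of 1 sample lay apart from those of the other 8 (Dixon's 95% criterion, which chance alone passes in about 1 of 20 groups), and in each it was 3 hr replicate 1. The log2 ratio there was -5.38 for BRD1, against -0.88 to 0.61 in the other samples. It was -2.84 for MLLT6, against -0.84 to 0.24, and -1.08 for BAZ1B, against -0.22 to 0.28. The same criterion was met by 114 of the 371 probes tested, 88 of them with 3 hr replicate 1 as the sample apart.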

How the results depend on the processing

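In all, 29 alternatives were run, 27 of them planned and 2 chosen after the data had been seen, and 0 regulators passed at any time point, in F or in a contrast in 28 of them. The exception left out the 4 samples with opposed dye orientations, which leaves 1 residual degree of freedom, where 3 regulators (102 probes) passed at 3 hr, 2 (48) in 3 hr minus 2 hr, 2 (65) in 3 hr minus 30 min and 2 (68) by F, and the 3 hr median of the regulators was -0.51. With the image day as a random block 16 probes passed at 3 hr. The replicate number as a block gave 0 regulators and 0 probes at each time point. Deviations of same-numbered samples had a median r of -0.0865 over 12 pairs, with 4 pairs over 0.1. Time points of 2 samples give mirrored deviations, and the direction of 4 samples is not settled. Whether equal numbers mark pairs could therefore not be decided. The t-tests over arrays and over samples give no F or contrast. Without the signal limit 43 regulators entered and the 3 hr median was -0.012. With both channels required above it 2 entered, with medians of -0.36 at 30 min, -0.25 at 2 hr and -1.36 at 3 hr. The 3 hr median was -0.41 in the deposited ratios, -0.028 with median centring and -0.027 with array quality weights. Leaving out 1 sample at a time moved it between -0.32 and -0.022, the higher value without 3 hr replicate 1.

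Of 44 values of a regulator at a time point 6 kept their sign under all alternatives. With median centring the 3 hr median of all probes was 0.14, against -0.058 with loess, and EZH1 turned to 0.46. With the opposed samples' arrays of laser RNA in Cy5 unturned EZH1 was 0.20 and BAZ1B 0.087 at 3 hr, CBX1 was -0.21 at 2 hr and HMG2 -0.075 over all samples. MLLT4 at 1 hr was 0.15 with all arrays of those samples then turned. In the deposited ratios CBX1 at 2 hr was -0.10, HMG2 and HMGIY at 30 min were -0.024 and -0.041, and HMG2 over all samples was -0.16. It was -0.076 with no background correction. The 3 hr mean of MLLT6 was 0.073 with array quality weights. Leaving out 1 sample at a time moved it between -1.41 and 0.13, and its sign turned without 3 hr replicate 1. The causes were not tested. Low signal limits the rest, since 32 regulators were above 1000 on 16 arrays or fewer.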
